A study of Mus musculus with 41 samples.

Results

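The comparison described here set 10 mouse melanomas taken 3 or 6 days after doxycycline withdrawal against 5 taken 2 days after it. The 15 tumours were chosen by their labelled day off doxycycline and are 15 of the 41 in the series: 5 at day 2, 6 at day 3 and 4 at day 6. All came from iBIP mice, in which melanomas driven by an inducible BRAF transgene grow while doxycycline is in the drinking water. Every tumour had therefore carried the active transgene and then lost the drug, and no tumour still on doxycycline enters this comparison. The labels name the strain as iBIP and no further allele, promoter or age, and they do not say whether each tumour came from its own mouse, so the tests below measure the spread between these tumours. RNA was taken from a macrodissected piece of frozen tumour with the skin trimmed away, and each day was sampled in different tumours.

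BRAF is a kinase of the MAPK cascade, which passes growth factor signals through MEK to ERK. Active ERK induces immediate early transcription factors, its own feedback phosphatases and the growth regulator MYC, which in turn raises genes of ribosome assembly. In melanoma, blocking this cascade is known to lower that output within hours and to be followed by changes in growth factor receptors, interferon signalling and the stroma.

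Levels were measured on Affymetrix mouse genome arrays and are given as log2 of the deposited intensity plus 16, after scaling all arrays to one distribution. A difference of 1 on this scale is close to a doubling for well-expressed genes and understates the change of dim ones. Of 18194 genes with a probe set of their own, 13514 passed the filter on low values and were tested. In bulk pieces of tissue such as these, fewer cells of a type and less RNA per cell cannot be told apart.

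The tumours varied more among themselves than with the day. The first 2 principal components held 29.1% and 20.1% of the variance, and the means of the 3 days accounted for 12.3% of the total variance, with 2 of the 14 degrees of freedom (14.3%). Day 2 replicate 1 and day 6 replicate 2 stood apart, with mean correlations to the other tumours of 0.924 and 0.931, against 0.942 to 0.966 for the remaining 13. The sexes, as far as Xist (the RNA of the inactive X chromosome) shows them, were unevenly spread. Xist exceeded 10 in 4 of 5 day 2 tumours, in 2 of 6 day 3 tumours and in 1 of 4 day 6 tumours. Some tumours held both kinds of signal: in day 2 replicate 3, Xist was 11.81 and the Y-linked Eif2s3y 8.95.

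Of 11 measures of RNA quality and hybridisation, none passed an exact two-sided permutation test after Benjamini-Hochberg adjustment over all 11. The control RNAs dap and phe came nearest. Mean dap was 10.00 ± 0.20 at day 2 and 9.76 ± 0.16 at days 3 and 6 (SD, n = 5 and n = 10), with a permutation p of 0.033 (adjusted 0.178). Mean phe was 7.44 ± 0.25 and 7.18 ± 0.17, with a permutation p of 0.0296 (adjusted 0.178). The control RNAs lys and thr were also lower later, by differences of -0.26 (permutation p 0.0559) and -0.19 (permutation p 0.217). The control RNA creX was higher, by 0.07 (permutation p 0.0646). The Gapdh gap between 3′ and 5′ probe sets, which widens as RNA degrades, lay between -0.22 and 0.06 in 14 tumours and was 0.48 in day 3 replicate 6. Levels of dap, phe, lys and Xist were each added to the fit as a covariate. Beyond that, their part in the results below was not tested.

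**Figure D1:**
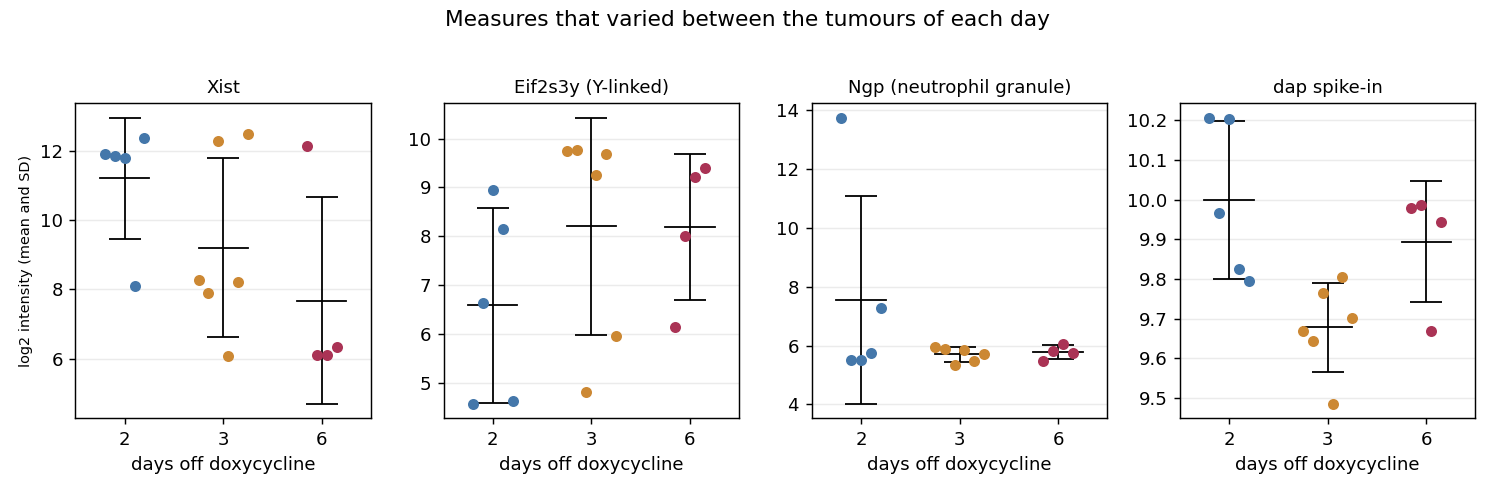
Log2 intensity of Xist, the Y-linked Eif2s3y, the neutrophil granule gene Ngp and the dap spike-in in each of the 15 tumours (points) by days off doxycycline, with the mean and SD of each day (bars). Xist was above 10 in 4 of 5 tumours at day 2 and in 3 of 10 later, and Ngp was 13.75 in a single day 2 tumour.

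The first question was which genes differed between days 3 and 6 together and day 2, that is, which parts of the response were still moving after the second day. No gene passed a limma test at an adjusted p of 0.05 (0 of 13514, 0%). The smallest adjusted p was 0.159, for Mr1. At an unadjusted p under 0.05, 648 genes were higher (4.8% of those tested) and 463 were lower (3.43%), 1111 in all. An exact Wilcoxon rank sum test called 0 genes, with 896 at an unadjusted p under 0.05. With so few tumours, the smallest p of that test passes adjustment only if very many genes reach it. Its count of 0 therefore adds no separate support. Covariates for Xist, dap, phe, lys and the keratinocyte level were alternatives added after the data were seen. With Xist, dap, phe or lys as a covariate, 592, 668, 749 and 521 genes reached that unadjusted level. The share of all genes lower at that level was then 1.18%, 1.47%, 2.05% and 1.01%, and the share higher 3.2%, 3.48%, 3.49% and 2.85%. In a single fit over all 41 arrays these shares were 2.5% lower and 3.23% higher, and with a slope per day 1.38% and 2.53%. With the keratinocyte level as a covariate they were 4.34% and 5.15%. Leaving out each tumour in turn gave 2.25% to 5.62% lower and 3.43% to 6.47% higher. Counts from gene lists under these settings, given below for days 3 and 6 against day 2, are to be read against these shares. Leaving out day 2 replicate 4 gave 8 genes at an adjusted p under 0.05, all higher: Adamts5, Col18a1, Nbea, Rftn2, Scara5, Sparcl1, Sqstm1 and Wdr35 (chosen after their values were seen, apart from Adamts5, Scara5 and Sqstm1).

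The differences were small. The median over all genes was 0.00, and 47 genes (0.348%) differed by more than 1, of which 13 were higher and 34 lower. For 93.9% of genes the 95% confidence interval lay wholly within 1 log2 unit of 0, with a median half-width of 0.25.

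**Figure D2:**
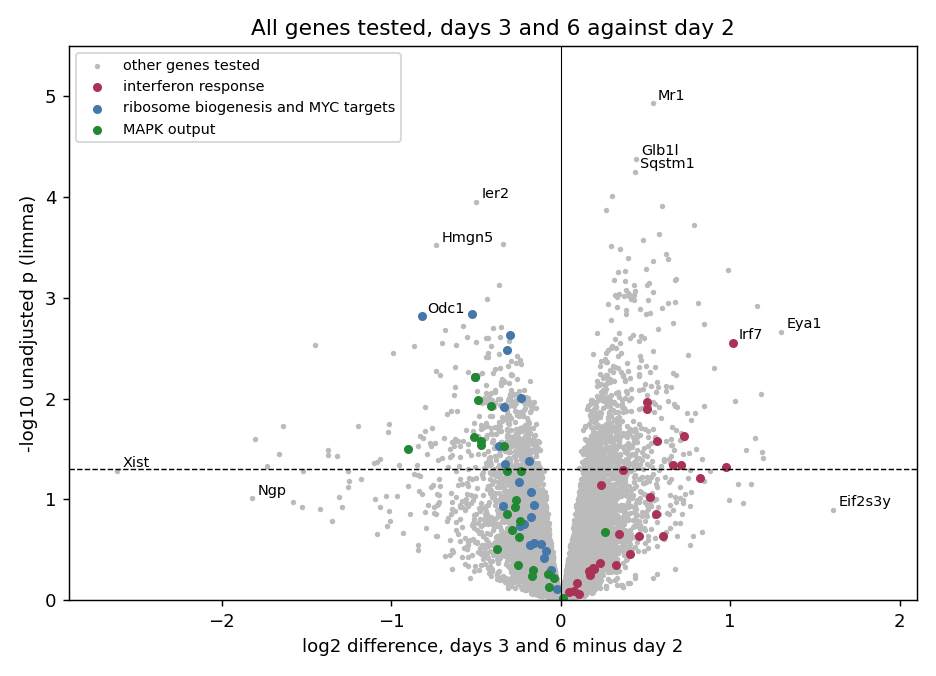
Each point is 1 of the 13514 genes tested, with the log2 difference between days 3 and 6 and day 2 on the x axis and -log10 of the unadjusted limma p on the y axis; 3 gene lists are coloured and the dashed line marks p = 0.05. All 27 interferon response genes lie to the right of 0 and all 25 ribosome biogenesis and MYC target genes to the left.

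The gene with the lowest p was Mr1, which encodes an MHC class I-like protein that presents vitamin B metabolites to MAIT cells. Its level in the 5 day 2 tumours was 7.36, 7.33, 7.25, 7.22 and 7.34. In the 10 later tumours it ranged from 7.63 through a median of 7.84 to 8.16. The groups did not overlap, and the day 2 values were tightly packed. The difference of 0.54 (95% interval 0.37 to 0.72) had an adjusted p of 0.159. Such a gap between the groups was seen in 23 higher genes (0.17% of those tested) and 4 lower genes (0.0296%).

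Sqstm1 encodes p62, an autophagy receptor that is itself degraded in autophagosomes. It measured 10.58, 10.39, 10.49, 10.74 and 10.42 at day 2 and ran from 10.75 through 11.00 to 11.10 later. The groups touched without overlapping, day 2 replicate 4 being the highest of the early tumours. Its difference was 0.44 (0.27 to 0.60) with an adjusted p of 0.251, and 0.49 with an adjusted p of 0.0476 without that tumour. Glb1l, a relative of lysosomal beta-galactosidase, was 6.72 ± 0.08 at day 2 (SD, n = 5) and 7.17 ± 0.15 later (SD, n = 10). Its groups did not overlap either, and the difference was 0.44 (0.28 to 0.61).

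Further genes with low p in this direction follow. Adamts5, a protease that cleaves aggrecan and versican, was 8.88, 8.87, 9.03, 9.59 and 9.09 at day 2 and 9.41, 9.71 and 9.91 (lowest, median, highest) later. Day 2 replicate 4 lay inside the later range and the other 4 below it. The difference was 0.60 (0.35 to 0.84), with an adjusted p of 0.261 and of 0.0289 without day 2 replicate 4. Lgals3bp, a secreted glycoprotein that binds galectin 3, differed by 0.79 (0.45 to 1.13). It was 9.77 to 10.18 at day 2 and 10.57 or above in 9 of the 10 later tumours, the exception being day 6 replicate 2 at 10.17. Plod1, which hydroxylates collagen lysines, differed by 0.49 (0.27 to 0.70), and the receptor phosphatase Ptpra by 0.27 (0.16 to 0.38), both without overlap.

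Mttp, which loads lipid onto lipoproteins, differed by 0.30 (0.16 to 0.43), also without overlap. Ephx1, a detoxifying epoxide hydrolase, differed by 0.62 (0.34 to 0.91) with overlapping groups. Cep162, a protein of the base of cilia, was 6.46 to 6.56 at day 2 and 6.69 to 6.91 later, a difference of 0.30 (0.18 to 0.42).

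**Figure D3:**
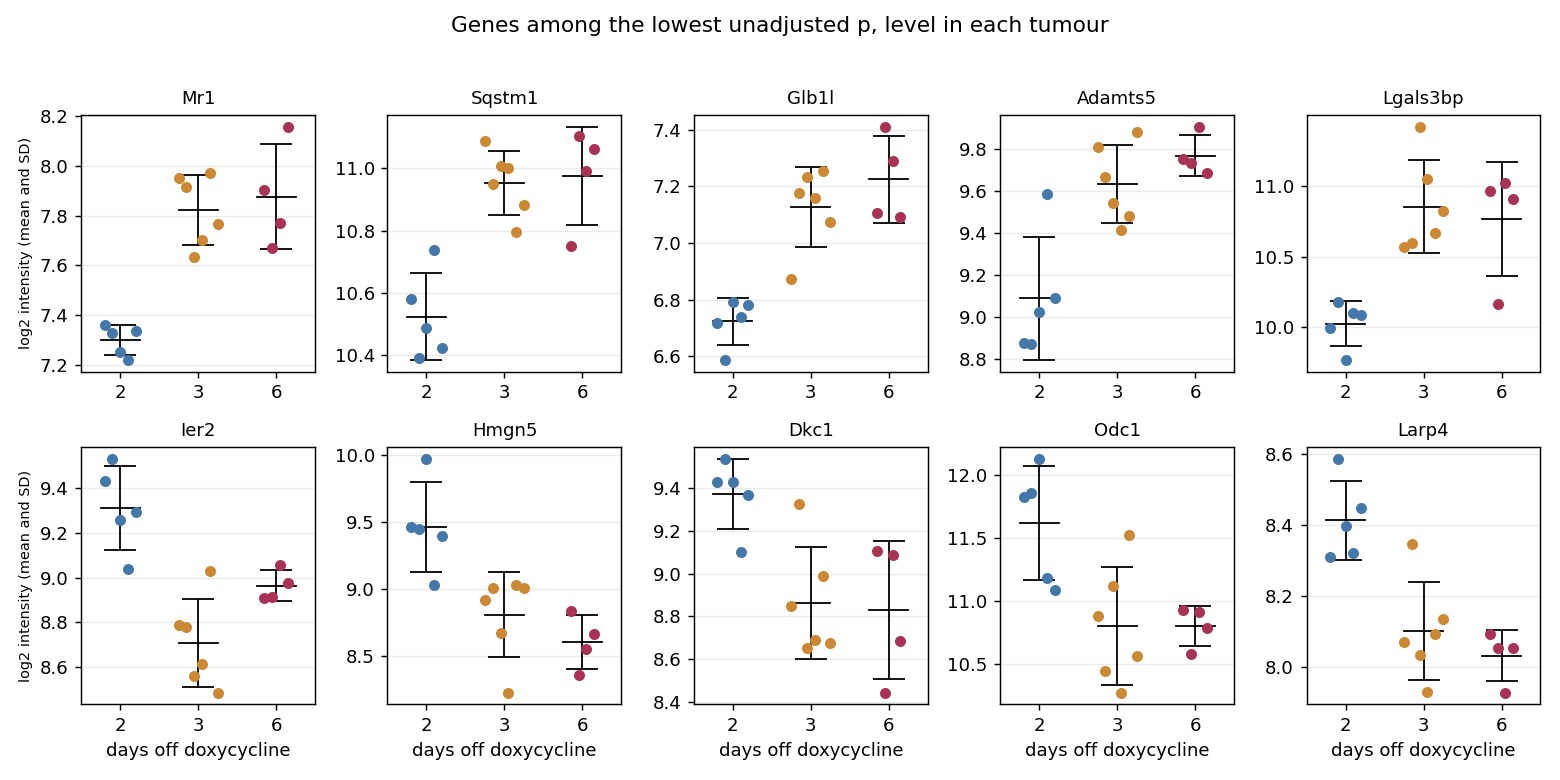
Log2 intensity of 10 genes among those with the lowest unadjusted p, in each tumour (points) by days off doxycycline, with the mean and SD of each day (bars). The day 2 points of Mr1, Sqstm1 and Glb1l lie below all later points, and those of Adamts5, Lgals3bp, Ier2, Dkc1, Odc1 and Larp4 overlap the later range.

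In the other direction the lowest p belonged to Ier2, an immediate early gene. Its level was 9.43, 9.53, 9.26, 9.04 and 9.29 at day 2 and ran from 8.49 through 8.85 to 9.06 later. Only day 2 replicate 4 entered the later range. The difference was -0.50 (-0.70 to -0.30), with an adjusted p of 0.261. Hmgn5, a protein that loosens chromatin by binding nucleosomes, was 9.46, 9.45, 9.97, 9.03 and 9.39 at day 2 and 8.22, 8.75 and 9.03 (lowest, median, highest) later. Its groups met at 9.03 without overlapping, and the difference was -0.74 (-1.07 to -0.40).

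Larp4, which protects the poly(A) tails of messenger RNAs, differed by -0.34 (-0.49 to -0.19). Bcl6b, a transcriptional repressor related to Bcl6, differed by -0.43 (-0.66 to -0.21). Rgs16, which shortens signalling by G proteins, differed by -0.57 (-0.90 to -0.25). The groups overlapped for all of these 3.

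The largest differences were mostly those of genes that a few tumours expressed strongly. Xist differed by -2.62 (-5.26 to 0.02) and Eif2s3y by 1.61 (-0.52 to 3.73), both following the uneven spread described above. Ngp, Camp and Ltf, granule proteins of maturing neutrophils, had differences of -1.82, -1.58 and -1.52. Each rested on day 2 replicate 1, where Ngp was 13.75, Camp 13.10 and Ltf 13.04, while the highest of the other 14 tumours was 7.27, 6.47 and 6.63. Ctsg, a neutrophil serine protease, was 11.72 in that tumour and 9.75 in day 2 replicate 2, and between 5.62 and 7.09 in the remaining 13. Prl6a1, a placental prolactin family gene, was 6.96, 8.25, 10.14, 5.60 and 6.37 at day 2 and 4.87 to 7.07 later, a difference of -1.64 (-2.96 to -0.32).

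Among large differences in the other direction, several were spread over most tumours. Eya1, a developmental phosphatase and transcriptional coactivator, was 5.80, 6.56, 6.31, 5.72 and 6.03 at day 2. Later it was 6.63 or above in 9 of 10 tumours and 5.74 in day 6 replicate 2, a difference of 1.30 (0.55 to 2.05). Scara5, a ferritin receptor of fibroblasts, was 9.21 to 10.01 in 4 day 2 tumours and 11.42 in day 2 replicate 4, against 10.51 to 11.67 later. It differed by 1.16 (0.54 to 1.77; adjusted p = 0.323), and by 1.49 without day 2 replicate 4 (adjusted p = 0.036). The secreted chaperone Clu differed by 1.18 (0.34 to 2.02), the BMP-family ligand Gdf10 by 1.19 and the matrix proteoglycan Ogn by 1.20, all 3 with overlapping groups.

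MAPK output was the first pathway of interest. Of 25 genes tested on a list of ERK-induced genes, 23 had a lower mean at days 3 and 6 and the median difference was -0.27, against 0.00 over all genes. None passed the adjusted test, and 8 were lower and 0 higher at an unadjusted p under 0.05, where 3.43% of all genes were lower. The 8 were Ereg, Egr1, Myc, Plaur, Dusp6, Dusp5, Etv4 and Spred3. The list's mean level per tumour was 8.58, 8.90, 9.04, 8.46 and 8.51 at day 2, and 7.99 to 8.68 with a median of 8.46 later. Day 2 replicates 2 and 3 were above every later tumour and the other 3 lay within the later range. When day 2 replicate 2 or day 2 replicate 3 was left out, 4 of the list reached that level, and without the latter the median was -0.16. The number was 4 with Xist, 0 with dap, 1 with phe and 2 with lys as a covariate, 5 in the fit over all 41 arrays and 3 with a slope per day.

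Ereg encodes epiregulin, a ligand of the EGF receptor. It was 8.71, 9.46, 10.01, 9.01 and 9.23 at day 2 and ranged widely later, from 6.71 through 8.31 to 9.54, a difference of -0.90 (-1.71 to -0.09). Dusp6, the phosphatase that switches off ERK in the cytoplasm, was 10.11, 11.17, 11.02, 10.18 and 10.49 at day 2 and 9.43, 10.15 and 10.68 (lowest, median, highest) later. The same 2 day 2 tumours stood out, and the difference was -0.47 (-0.88 to -0.06). Etv4, an ETS transcription factor, differed by -0.41 (-0.71 to -0.11). Plaur, the urokinase receptor, differed by -0.48 (-0.84 to -0.13), and the feedback inhibitor Spred3 by -0.33 (-0.63 to -0.04).

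The immediate early and AP-1 genes, which answer to ERK within minutes, are given for both days together and then day by day. At days 3 and 6 against day 2 their median difference was -0.15, and 15 of 19 had a lower mean. Of these, 5 were lower at an unadjusted p under 0.05, against 3.43% of all genes. At day 3 against day 2 their median difference was -0.26 and 6 of 19 were lower at an unadjusted p under 0.05, where the share among all genes was 3.09%. At day 6 against day 2 the median was -0.04 and 1 was lower, with 2.12% of all genes lower. At day 6 against day 3 all 19 had a higher mean, with a median of 0.22, and 4 were higher at an unadjusted p under 0.05, against 1.28% of all genes. That number of higher means was 15 with arrays centred on their medians, 16 with the deposited values left unscaled and 16 without day 6 replicate 2, which also brought the median to 0.10. The count of 4 was 1 in the fit over all 41 arrays or with dap as a covariate. It was 2 with Xist or phe as a covariate, or without day 3 replicate 3 or 4. In these fits 0.969% to 1.85% of all genes were higher at day 6 against day 3. Without day 2 replicate 1, day 2 replicate 5 or day 3 replicate 4, 4 genes were lower at day 3 against day 2, with a median of -0.16 without day 2 replicate 5. In those left-out fits 2.75%, 3.79% and 2.02% of all genes were lower, in the order given. In the fit over all 41 arrays 2 of the list were lower, and with dap, phe or lys as a covariate 3 were. The share of all genes lower at day 3 against day 2 was then 1.89%, 1.47%, 2.95% and 1.08%. These comparisons share tumours and are given side by side. Other lists also had higher means at day 6 against day 3. They included 20 of 21 skeletal muscle genes (median 0.37), 17 of 18 neutrophil (0.53), 17 of 18 endothelial (0.39) and 20 of 24 keratinocyte genes (0.65). In MAPK output 13 of 25 were higher (median 0.03), and in interferon response 7 of 27 (median -0.10). Whether these shifts share a cause was not tested.

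Junb, a component of AP-1, was 8.46 to 8.73 at day 2, between 7.54 and 8.46 at day 3, and 8.30, 8.57, 8.21 and 8.64 at day 6. Its difference was -0.62 (-0.91 to -0.32) at day 3 against day 2 and 0.48 (0.16 to 0.79) at day 6 against day 3. Ccn1, a matricellular protein, was 9.82, 9.38, 8.68, 8.27 and 9.26 at day 2 and between 7.33 and 8.64 at day 3. At day 6 it was 8.70, 8.76, 8.42 and 8.81, so that the 4 day 6 tumours lay among the day 2 values. The day 3 difference from day 2 was -1.17 (-1.75 to -0.59) and the day 6 difference from day 3 was 0.76 (0.15 to 1.37). Egr1, a zinc finger transcription factor counted on both lists, had means of 9.86, 9.21 and 9.55 at days 2, 3 and 6. None of these differences passed the adjusted test.

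Genes of ribosome biogenesis and MYC targets come next. All 25 tested had a lower mean at days 3 and 6, with a median of -0.22, and 10 were lower at an unadjusted p under 0.05, against 3.43% of all genes; 0 passed the adjusted test. Their mean level per tumour was 8.88, 9.20, 9.01, 8.97 and 9.01 at day 2, and 8.61 to 8.97 with a median of 8.73 later. Day 2 replicate 1 lay within the later range, and so did day 2 replicate 4 by a narrow margin. The count of 10 was 13 without day 2 replicate 1, 7 with Xist as a covariate and 6 with each of dap, phe and lys. It was 4 in the fit over all 41 arrays and 1 with a slope per day.

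MYC itself, a transcription factor of growth, is on this list and on that of MAPK output. Myc was 8.46, 8.71, 8.50, 8.05 and 8.70 at day 2 and 7.27 to 8.30 later, so that only day 2 replicate 4 overlapped; the difference was -0.51 (-0.84 to -0.17). Odc1, the first enzyme of polyamine synthesis, was 11.83, 11.85, 12.12, 11.18 and 11.09 at day 2 and ran from 10.27 through 10.83 to 11.52 later. It differed by -0.82 (-1.26 to -0.37), with an adjusted p of 0.347. Dkc1 and Gar1 both belong to the box H/ACA particles that modify ribosomal RNA. Dkc1 differed by -0.52 (-0.81 to -0.24) and Gar1, which is not on the list, by -0.36 (-0.54 to -0.18). Nop2, a ribosomal RNA methyltransferase, differed by -0.30 (-0.47 to -0.12).

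MYC binds the E-box CACGTG, which reads the same on both strands. Of the 18 list members with a single start in the RefSeq promoter table, 1 held it in the 250 bases before the start (5.56%), against 719 of 8666 tested genes (8.3%). That member was Nop2, shown here with the E-box in capitals (GRCm38.p6, chr6:125131793-125131858, plus strand, bases 90 to 25 before its start).
Nop2: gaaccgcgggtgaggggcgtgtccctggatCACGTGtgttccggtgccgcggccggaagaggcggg

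Cell cycle genes also had lower means. Of 24 DNA replication genes 23 had a lower mean, the median was -0.23 and 4 were lower at an unadjusted p under 0.05, against 3.43% of all genes. Ccne2, the cyclin that opens S phase, differed by -0.62 (-1.02 to -0.22). Of 24 mitosis genes 23 also had a lower mean, with a median of -0.19, and none was lower at an unadjusted p under 0.05. Cdk1, the mitotic kinase, differed by -0.32, with an adjusted p of 0.607. The mitosis median depended on day 2 replicate 1, whose list level of 8.95 was the highest of all: without it the median was -0.03, and that of DNA replication -0.13 with 2 genes at the unadjusted level. Without day 2 replicate 4 those counts were 13 for DNA replication and 6 for mitosis, and without day 2 replicate 2 they were 8 and 1. Shares among all genes were 5.62% and 2.35% in these fits. With dap, phe or lys as a covariate 0 of either list reached that level, and with Xist as a covariate 1 of DNA replication and 0 of mitosis. A keratinocyte covariate, with 4.34% of all genes lower, gave 9 and 2, and a slope per day 2 and 0. Mki67, a marker of cycling cells, differed by -0.18 and by 0.01 without day 2 replicate 1.

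**Figure D4:**
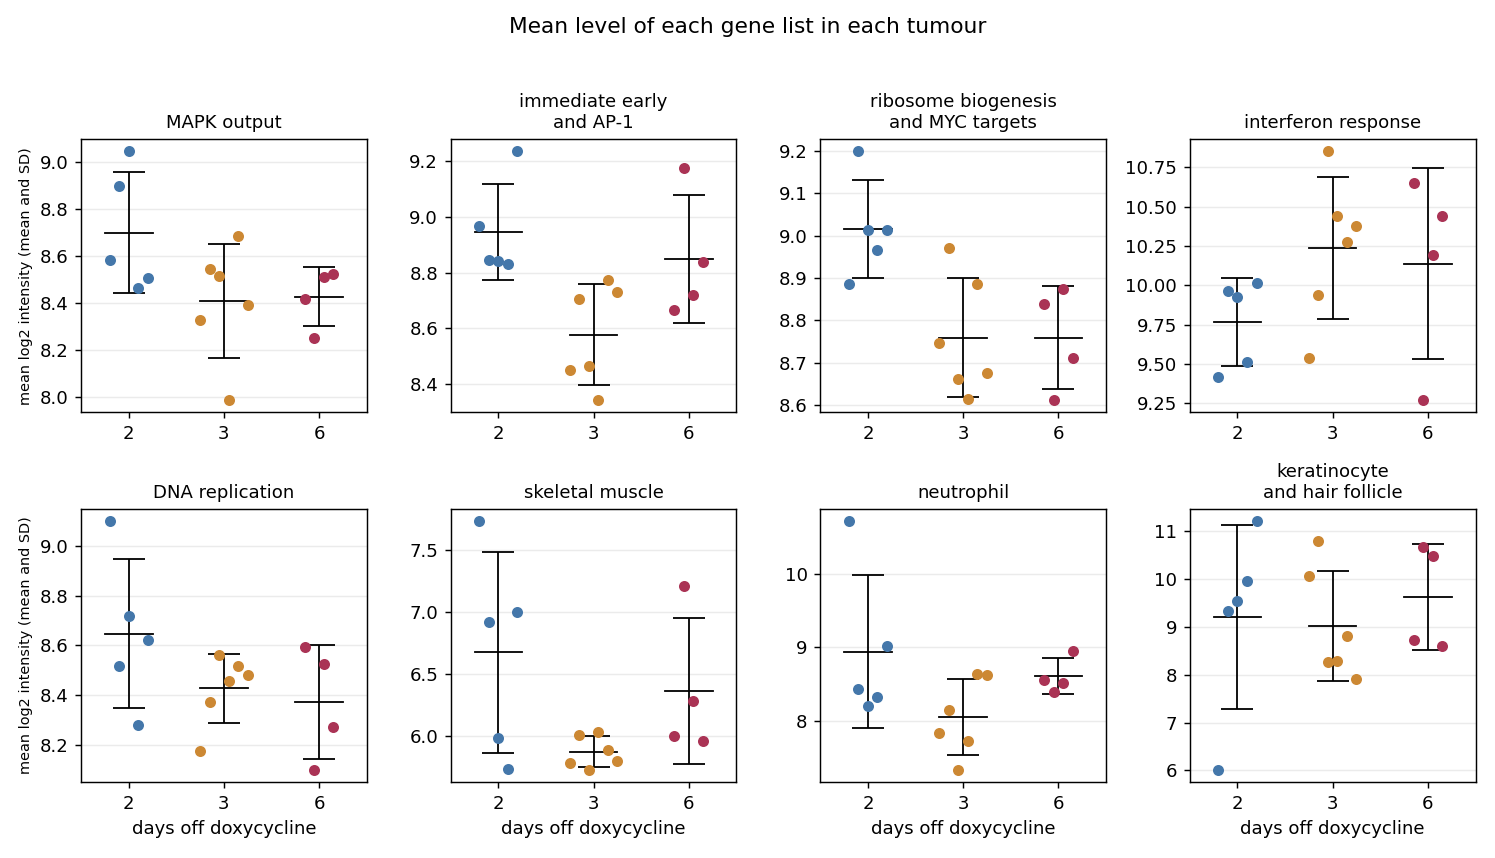
Mean log2 intensity over the tested genes of 8 lists in each tumour (points) by days off doxycycline, with the mean and SD of each day (bars). Day 2 overlaps the 10 later tumours in every list, although it lies wholly above day 3 in immediate early genes and wholly above day 6 in ribosome biogenesis genes; the muscle and neutrophil levels of 7.73 and 10.71 at day 2 belong to replicate 1, whose keratinocyte level of 6.01 is the lowest.

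Interferon response genes had higher means. All 27 tested had a higher mean at days 3 and 6, with a median of 0.41, and 8 were higher at an unadjusted p under 0.05, against 4.8% of all genes; 0 passed the adjusted test. The 8 were Irf7, Mx1, Oasl2, Ifit1, Usp18, Rtp4, Mx2 and Stat2. The list's mean level was 9.42, 9.96, 9.93, 9.51 and 10.01 at day 2 and ran from 9.27 through 10.32 to 10.85 later. All 5 day 2 tumours lay within the later range, and 7 of the 10 later tumours were above the highest of them. The count of 8 was 4 without day 2 replicate 1, and 5 without any one of day 3 replicates 3, 4, 5 and 6 and day 6 replicates 1 and 4. It was 12 with Xist as a covariate, 5 with the keratinocyte level or the Gapdh gap, 3 with dap or phe and 4 with lys. It was 4 in the fit over all 41 arrays, 3 with a slope per day and 5 with no filter on low values. The Gapdh gap had been planned as a covariate.

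Interferon-stimulated genes are switched on through a short element, taken here as GAAA, any 2 bases and GAAA again, which reads TTTC, 2 bases and TTTC on the other strand. It was searched on both strands in the 250 bases before the start. Of the 16 list members with a single start in the RefSeq table, 11 held it (68.8%), against 230 of 8666 tested genes (2.65%). The element is part of what defines such genes, and its presence says nothing of the factor's activity in these tumours. Stretches of 4 members are shown 5′ to 3′ with the element in capitals, from GRCm38.p6: Ifit1 at chr19:34640755-34640843 and Ifit3 at chr19:34583343-34583446 on the plus strand, Rsad2 at chr12:26456533-26456602 on the minus strand, and Stat2 at chr10:128270248-128270315 on the plus strand.
Ifit1: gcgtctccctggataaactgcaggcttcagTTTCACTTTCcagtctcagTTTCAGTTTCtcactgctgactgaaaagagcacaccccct
Ifit3: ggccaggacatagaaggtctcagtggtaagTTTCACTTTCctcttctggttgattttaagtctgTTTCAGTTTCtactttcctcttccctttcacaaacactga
Rsad2: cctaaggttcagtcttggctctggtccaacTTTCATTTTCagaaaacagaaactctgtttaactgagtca
Stat2: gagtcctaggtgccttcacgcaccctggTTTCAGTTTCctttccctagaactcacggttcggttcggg
Ifit1 and Ifit3, whose products bind viral RNA, carry the element at 2 places each, and Rsad2 and Stat2 at 1.

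Irf7, the factor that amplifies type I interferon, was 7.85, 9.32, 9.02, 9.23 and 8.80 at day 2 and 9.15, 9.93 and 10.84 (lowest, median, highest) later. Its difference was 1.02 (0.41 to 1.62), with an adjusted p of 0.442. Stat2, a subunit of the factor that binds the element above, was 6.61, 7.01, 7.30, 7.22 and 7.71 at day 2 and 7.26 to 8.21 later, a difference of 0.51 (0.14 to 0.88). Ifit1 differed by 0.71 (0.02 to 1.40) and Mx1, an antiviral GTPase, by 0.98 (0.01 to 1.94). In each of these genes day 2 replicate 1 was the lowest of the 15 tumours. Antigen presentation genes, many of them also interferon-induced, had a median of 0.11 with 16 of 19 higher in mean and none at an unadjusted p under 0.05.

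Receptors and their downstream pathway came next. Of 18 growth factor receptors 3 were higher at an unadjusted p under 0.05, where 4.8% of all genes were: Mertk, Axl and Pdgfra. The list median was 0.14, 0.08 without day 2 replicate 2 and 0.19 without day 2 replicate 5. With phe as a covariate it was 0.03, and 2 genes were higher and 2 lower at that level. The number higher was 4 with Xist as a covariate or with averaged probe sets. It was 2 with lys as a covariate and 1 with a slope per day. Mertk and Axl are TAM receptors for Gas6, and Mertk also marks macrophages that clear dying cells. Mertk was 8.26, 8.05, 8.02, 8.17 and 8.14 at day 2, between 8.47 and 9.24 at day 3, and 8.11, 8.53, 8.36 and 8.38 at day 6. All 6 day 3 tumours were above all day 2 tumours, while the day 6 values overlapped both. The differences were 0.71 (0.42 to 0.99) at day 3 and 0.22 (-0.10 to 0.53) at day 6, each against day 2, and -0.49 (-0.79 to -0.19) at day 6 against day 3.

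Axl was 10.63, 10.30, 10.51, 10.14 and 10.64 at day 2 and 10.52, 10.89 and 11.26 (lowest, median, highest) later, a difference of 0.46 (0.19 to 0.74). It was 0.46 at day 3 and 0.46 at day 6 against day 2. Pdgfra, the PDGF receptor of fibroblasts, differed by 0.62 (0.20 to 1.05). Of 20 PI3K, AKT and FOXO genes 4 were higher at an unadjusted p under 0.05 and 0 lower, against 4.8% and 3.43% of all genes, and the median was 0.15. Without day 2 replicate 2 or day 2 replicate 3 the number higher was 2, where 3.43% and 3.54% of all genes were. The median was 0.09 without the former. Without day 2 replicate 4, where 6.47% of all genes were higher, the number was 6, with a median of 0.23. The number higher was 2 with averaged probe sets or Xist as a covariate, and 1 with dap, phe or lys as a covariate or with a slope per day. The 4 were Pik3ip1, Sesn3, Pik3r1 and Ccng2; Pik3ip1, which restrains PI3K, differed by 0.68 (0.23 to 1.13).

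Cell death, stress and metabolic lists follow. At an unadjusted p under 0.05, 4.8% of all genes were higher and 3.43% lower. Of 14 BCL2 family genes 1 was higher and 1 lower at that level, with a median near 0. The higher one was Bmf, a BH3-only death activator, at 0.68 (0.12 to 1.24), and the lower one was Bok. Ddit4, a stress-induced inhibitor of mTORC1 on the hypoxia list, differed by 0.59. Lists of p53 targets, ATF4 and unfolded protein stress, glycolysis, hypoxia, cholesterol synthesis and the respiratory chain had medians between -0.04 and 0.10, and each held between 0 and 4 genes at an unadjusted p under 0.05. The respiratory chain held the most, with 1 of 24 higher and 3 lower. Heat shock genes had a median of -0.09, with 10 of 12 lower in mean and 2 lower at that level.

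The melanocyte label was checked against 16 lineage genes. Of these, 13 were tested, and Mlana, Tyr and Gpr143 stayed below the filter in these 15 tumours. Sox10, the neural crest factor of melanocytes, was 8.30 to 10.41 in the 15 tumours and differed by 0.24 (-0.34 to 0.82). Mitf, the master regulator of the lineage, differed by 0.38, with an adjusted p of 0.607. The list median was 0.02. At an unadjusted p under 0.05, 1 of 13 genes was lower and 0 higher, against 3.43% and 4.8% of all genes. The 1 was Ednrb, the endothelin receptor of melanoblasts. Ednrb was 8.25, 7.94, 7.30, 7.96 and 7.45 at day 2 and 6.42 to 7.66 later, a difference of -0.73 (-1.21 to -0.26).

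Stromal lists were examined as well. Of 25 fibroblast and collagen genes 4 were higher (Pdgfra, Dcn, Sparc and Fn1) and 1 lower (Tagln, a marker of contractile cells) at an unadjusted p under 0.05, against 4.8% and 3.43% of all genes, and the median was 0.19. The median was 0.10 without day 6 replicate 2, whose list level of 12.09 was the highest, and 0.10 without day 2 replicate 3. The number higher was 2 without day 2 replicate 3, any one of day 3 replicates 1, 3, 4 and 5, or day 6 replicate 3. It was 2 with arrays centred on their medians, left unscaled or with averaged probe sets, 1 in the fit over all 41 arrays or with Xist or dap as a covariate, and 0 with phe or lys. Of 18 matrix proteases and inhibitors 3 were higher, Adamts5, Mmp2 and Timp2, and the median was 0.24, or 0.08 without day 2 replicate 5. Timp2, an inhibitor of matrix metalloproteinases, was without overlap between the groups and differed by 0.37. Col1a1, the main collagen chain, differed by 0.56 at an adjusted p of 0.63. Dkk3, a secreted relative of the WNT inhibitors, differed by 0.75 (0.29 to 1.22), and Bmp2, a BMP ligand, by -1.01 (-1.82 to -0.20).

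Macrophage genes had a median of 0.11 over 30 genes, with 3 higher at an unadjusted p under 0.05, against 4.8% of all genes: Gpnmb, Lgmn and Apoe. The number higher was 6 without day 2 replicate 1, and 5 without day 2 replicate 2 or day 6 replicate 2 or with phe as a covariate. It was 2 with Xist or dap as a covariate or with a slope per day, and 1 in the fit over all 41 arrays. The median was 0.21 without day 2 replicate 1, 0.20 without replicate 2, 0.04 without replicate 3, 0.01 without replicate 4 and 0.05 without replicate 5. Gpnmb, a lysosomal glycoprotein of phagocytes and pigment cells, was 7.29, 8.17, 7.92, 7.27 and 8.62 at day 2, between 7.76 and 9.10 at day 3, and 8.53, 9.89, 9.31 and 8.90 at day 6. Its day 6 difference from day 2 was 1.30 (0.59 to 2.02), and its day 3 difference 0.64 (-0.01 to 1.28). Apoe, a lipid carrier, differed by 0.33. Of 22 lysosome genes 18 were higher in mean, with a median of 0.12, and 3 were higher at an unadjusted p under 0.05. That number was 6 without day 2 replicate 1 and 0 with Xist, phe or lys as a covariate or in the fit over all 41 arrays. The lysosome median was 0.19 without day 2 replicate 2 and 0.07 without day 2 replicate 3, 4 or 5. T and NK cell genes had a median of -0.04 and none of 22 at that level.

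Markers of host tissue varied between single tumours. Skeletal muscle genes had the second lowest list median, -0.49. At an unadjusted p under 0.05, 9 of 21 were lower, against 3.43% of all genes. At day 3 against day 2, 12 were lower (3.09% of all genes), and at day 6 against day 2, 0 (2.12%). A filter at the 60th percentile kept 10 of these genes, 7 of them lower. The mean level of all 21 ran from 5.73 through 6.92 to 7.73 at day 2, highest in replicate 1. Later it ran from 5.72 to 6.28, around the unscaled array medians of 6.08 to 6.19, apart from 7.21 in day 6 replicate 2. Without day 2 replicate 1 none was lower at that level and 1 was higher, with a median of -0.26. The number lower was 2 to 5 without day 2 replicate 2 or 5, day 3 replicate 1, 3, 5 or 6, or day 6 replicate 1. Without day 6 replicate 2 it was 14, and without both that tumour and day 2 replicate 1 it was 8, with 1 higher and a median of -0.39. With Xist, dap or lys as a covariate, in the fit over all 41 arrays or with a slope per day it was 0. It was 2 with phe as a covariate and 4 with both days weighted equally. Myh1, a fast muscle myosin, was 9.23, 7.44, 5.78, 4.49 and 9.05 at day 2 and 4.46 to 8.02 later. Neutrophil genes had a median of -0.52, and -0.13 without day 2 replicate 1. S100a9, the abundant calprotectin subunit of neutrophils, was 14.13, 12.69, 12.33, 12.05 and 13.42 at day 2, 8.28 to 12.66 at day 3, and 12.30, 11.91, 13.75 and 12.46 at day 6.

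The keratinocyte and hair follicle level, a measure of skin in the piece, was 6.01, 9.33, 9.53, 9.95 and 11.20 at day 2 and 7.91 to 10.79 later. The lowest and the highest of the 15 tumours were both day 2 tumours, and the median difference between the groups was 0.10. The days differed in direction, with medians of -0.24 at day 3 and 0.45 at day 6, each against day 2. Lists for B cells, dendritic cells, mast cells, endothelium, adipocytes, Schwann cells, red cells, complement, inflammatory cytokines and TGF-beta, BMP and WNT feedback had medians between -0.20 and 0.30. Each held 0 to 3 genes at an unadjusted p under 0.05, where 4.8% of all genes were higher and 3.43% lower. The part of skin, muscle and blood cells in the other differences was not tested beyond the covariate and the left-out tumours given above.

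**Figure D5:**
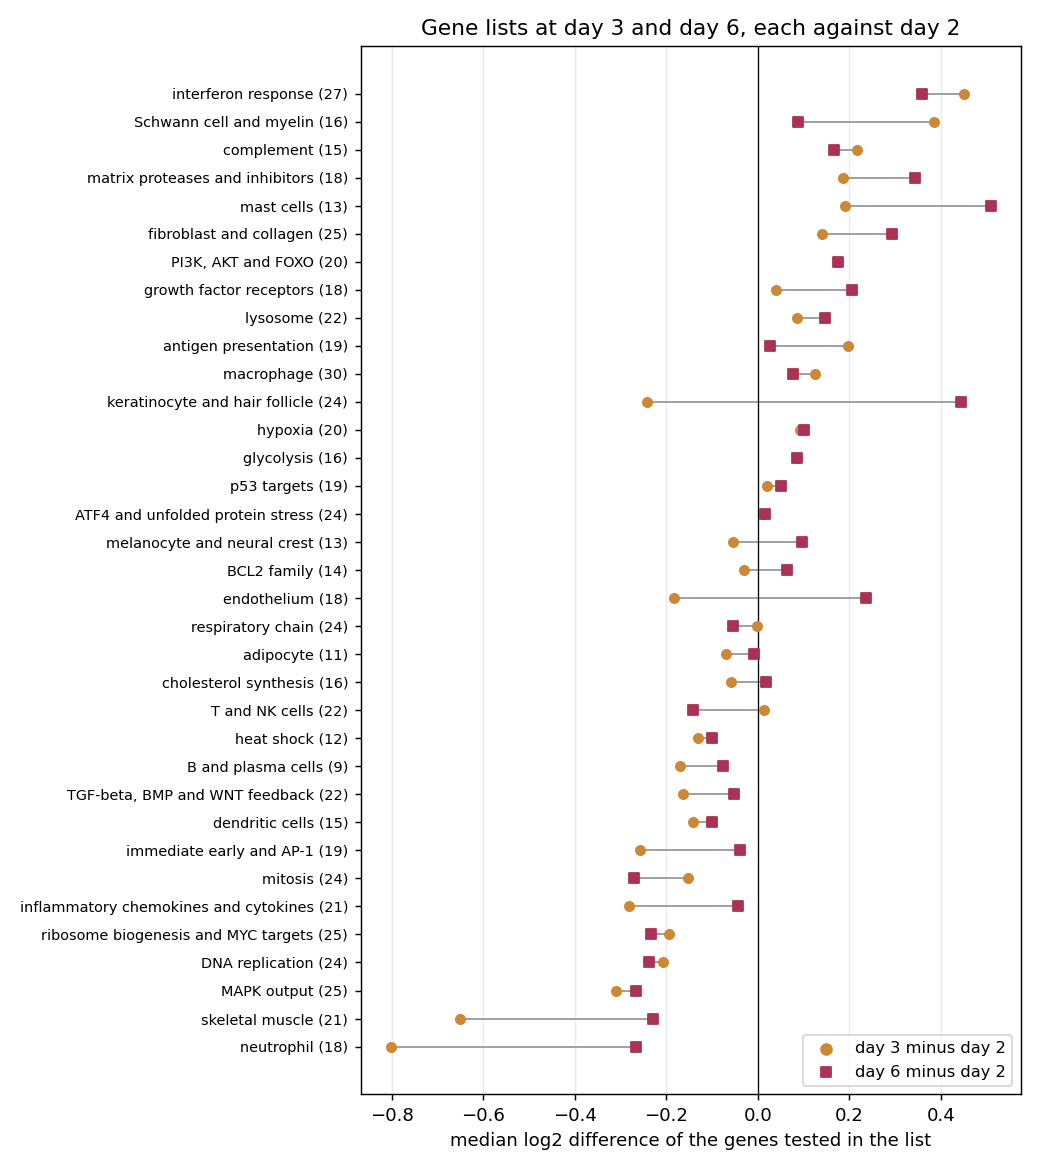
Median log2 difference of each gene list, apart from the sex-linked and erythroid lists, at day 3 (circles) and day 6 (squares). Each day is set against the same 5 day 2 tumours, with the number of genes tested in brackets. The medians at day 3 and day 6 are -0.19 and -0.23 for ribosome biogenesis, -0.31 and -0.27 for MAPK output, 0.45 and 0.36 for interferon response, and -0.26 and -0.04 for immediate early genes; because both days share the day 2 tumours, no likeness between them is read.

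Each day was also compared with day 2 on its own. At day 3 against day 2, 0 of 13514 genes passed (0%), the smallest adjusted p was 0.348, and 553 genes were higher (4.09%) and 418 lower (3.09%) at an unadjusted p under 0.05. At day 6 against day 2, 0 passed (0%), the smallest adjusted p was 0.421, and 459 were higher (3.4%) and 287 lower (2.12%). Wilcoxon tests called 0 in both, with 534 and 485 genes at an unadjusted p under 0.05. With groups this small, such tests could call a gene only if very many genes separated the groups completely. These counts of 0 therefore decide nothing. Without day 2 replicate 4, 5 genes passed at day 3 against day 2: Adamts5, Col18a1, Scara5 and Sparcl1 higher, and Ier2 lower. Both comparisons use the same 5 day 2 tumours, so their values are given side by side and no likeness is read from them: Mr1 differed by 0.52 and 0.57, Sqstm1 by 0.43 and 0.45, and Odc1 by -0.82 and -0.82.

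The difference of day 6 from day 3 uses no day 2 tumour, but its limma p values and intervals rest on the spread within all 3 days. Again 0 of 13514 genes passed (0%), the smallest adjusted p was 0.999, and 173 genes were higher (1.28%) and 82 lower (0.607%) at an unadjusted p under 0.05, fewer than the 5% at which that level is set. A Wilcoxon test called 0 genes, with 369 at an unadjusted p under 0.05, and it has the same limit at these group sizes. The lowest p was that of Gstk1, a peroxisomal and mitochondrial glutathione transferase. It was 7.06 to 7.53 at day 3 and 7.97, 7.87, 7.86 and 8.02 at day 6, without overlap, a difference of 0.59 (0.31 to 0.87). At day 2 it was 6.81 to 7.50, overlapping day 3.

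Reg3g, an antibacterial lectin of injured skin and gut, was 5.47 to 7.36 at day 3 and 8.34, 10.20, 7.66 and 7.79 at day 6, a difference of 2.15 (0.97 to 3.32). Of the 5 day 2 values, 2 (7.87 and 8.32) lay among those of day 6. Epgn, an EGF receptor ligand of epithelium, was 5.28 to 6.98 at day 3 and 7.32, 9.33, 7.93 and 7.51 at day 6, a difference of 1.98 (0.78 to 3.18). Day 6 replicate 2 was the highest for both, and its keratinocyte level of 10.65 was the highest at day 6. The keratinocyte list had a median of 0.65 at day 6 against day 3, and the part of skin in these differences was not tested. Ewsr1, an RNA-binding protein, was 9.94 to 10.36 at day 3 and 9.74, 9.83, 9.84 and 9.64 at day 6, a difference of -0.33 (-0.53 to -0.14).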

How the data were processed

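The deposited intensity values, on a linear scale, are the authors' processed values; the submitters' processing notes name RMA and MAS5 without a version or role. All 41 arrays were read, 16 was added, log2 taken and arrays quantile normalised. Of 45101 probe sets, 34958 have 1 gene in the platform annotation, 932 several and 9211 none; each gene was represented by its probe set with the highest mean over the 41 arrays. Genes above the 40th percentile of their array in at least 4 of the 15 arrays were tested.

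Differences come from limma 3.58.1 in R 4.3.3 (lmFit, contrasts.fit and eBayes) with a mean per day over the 15 arrays, Benjamini-Hochberg adjustment over all genes and a threshold of 0.05; intervals are 95% confidence intervals. Days 3 and 6 were weighted by their 6 and 4 tumours. The procedure was tested on simulated data. Technical measures used exact permutation over 3003 splits. Gene lists carry counts and medians, with no test. Genes named were the 12 lowest p values and 8 largest differences per direction, 4 per direction for each pair of days, 2 of each list and a fixed set, of which some are given. The comparison, the lists and that set were chosen with earlier results of these data known. The 37 lists were updated for older symbols through RefSeq (GRCm38.p6); members without a probe set of their own are not analysed here. The number of arrays limits the precision. Replicates are numbered in accession order, which pairs no tumours.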

Additional observations from a re-analysis of the deposited data

Results flagged for a closer look

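Within the days of 4 to 6 tumours, the genes described with values above and 36 list levels were examined for a single tumour far from the others. Of 312 such groups 26 were marked, and chance alone marks about 1 in 20. Many of these genes were named for their values in these same tumours, so the number marked is not weighed against that rate. The text gives each with the range of the other tumours of its day, on the log2 scale.

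At day 2, replicate 1 had Ngp at 13.75 (others 5.51 to 7.27), Camp at 13.10 (5.87 to 6.47) and Ltf at 13.04 (5.83 to 6.53). Replicate 2 had an ATF4 and unfolded protein stress level of 9.26 (9.09 to 9.12). Replicate 4 had Xist at 8.10 (11.81 to 12.39), and replicate 5 had Mttp at 6.26 (6.49 to 6.55).

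At day 3, replicate 2 had the highest erythroid level, 8.69 (7.09 to 7.62), and cholesterol synthesis level, 8.98 (8.12 to 8.34). Replicate 3 had a mast cell level of 7.76 (8.78 to 9.24), an endothelial level of 7.75 (7.43 to 7.52) and Pdgfra at 12.83 (11.64 to 12.03). Replicate 4 had an ATF4 and unfolded protein stress level of 8.98 (9.12 to 9.19), Mttp at 6.56 (6.67 to 6.73) and Ltf at 6.63 (5.74 to 5.96). Replicate 6, the tumour with the wide Gapdh gap, had Gar1 at 8.38 (8.69 to 8.76).

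At day 6, replicate 2 was marked 7 times: an endothelial level of 8.68 (7.50 to 7.64), Lgals3bp at 10.17 (10.91 to 11.02), Rgs16 at 8.35 (7.82 to 7.87), Eya1 at 5.74 (7.76 to 7.86), Sox10 at 8.30 (9.46 to 9.65), Pik3ip1 at 8.22 (8.71 to 8.74) and Bmf at 8.46 (6.99 to 7.19). Replicate 1 had Xist at 12.16 (6.11 to 6.33) and Ctsg at 7.09 (5.62 to 5.75). Replicate 3 had Ptpra at 9.83 (9.75 to 9.76), and replicate 4 had Plaur at 9.52 (8.95 to 9.02).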

How the results depend on the processing

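The number of genes called at an adjusted p of 0.05 was 0 in all 4 comparisons, and in 143 of 146 recomputed counts. It became 1 (Mr1, difference 0.44) for days 3 and 6 against day 2 when the probe sets of a gene were averaged. Leaving out each tumour in turn gave 0 to 8 genes for days 3 and 6 against day 2 and 0 to 5 for day 3 against day 2, in both cases above 0 only without day 2 replicate 4. A slope per day, in place of group means, gave 529 genes at an unadjusted p under 0.05 and turned the sign of Junb (0.0079 per day), Epgn (0.29), Sox10 (-0.024) and S100a9 (0.054). With each tumour left out in turn, Reg3g ran from -0.13 (without day 6 replicate 2) to 0.53, being -0.053 without day 2 replicate 4, and Mki67 from -0.30 to 0.014 (without day 2 replicate 1). Alternatives chosen after seeing the data turned Eif2s3y to -0.018 (Xist as a covariate), Sox10 to -0.060 (dap as a covariate) and Mki67 to 0.095 (without day 2 replicate 1 and day 6 replicate 2). The causes were not tested. Adamts5, Scara5 and Sqstm1 passed the threshold without day 2 replicate 4 and Mr1 with averaged probe sets, and the other 2361 recomputed gene differences kept their sign and side of the threshold. No paired analysis was possible because no label pairs tumours across days, and the numbers given here are in accession order.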
